A study of Arabidopsis thaliana with 21 samples.

Results

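The 45 genes described here encode heat shock transcription factors (HSFs) and heat shock proteins of Arabidopsis thaliana. They were taken by their locus identifiers from the 33602 genes of the deposited mRNA table, and all 45 were found there. They comprise 19 HSF genes (14 of class A, 5 of classes B and C), the disaggregase gene HSP101, 4 cytosolic HSP90 genes, 5 cytosolic HSP70 genes, 3 BIP genes of the endoplasmic reticulum (ER) and 13 small heat shock protein genes. The genes were chosen by family and not by a measured value, although earlier results of these data were known.

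Messenger RNA was sequenced in 9 libraries, 3 each of wild-type Col-0 and of the mutant lines dxo1-1 and dxo1-2, at an age of 16 days. Small RNAs were sequenced in 12 libraries from 10-day-old plants, 3 each from Col-0, dxo1-2, dcl4-2 and the double mutant dxo1-2dcl4-2. DXO1 encodes an enzyme that removes NAD caps from RNA, and DCL4 a Dicer-like enzyme that makes small interfering RNAs. The labels name the lines without the nature of the alleles, list rosette leaves as the tissue of every library although the protocol for small RNA speaks of seedlings, and give growth at 22 ºC with no heat treatment. They do not say whether replicates were separate plants or pools, so the p-values measure the spread between these libraries, which may be technical.

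HSFs bind heat shock elements in promoters. In Arabidopsis, class A factors carry activation domains and the HSFA1 genes start the heat response, whereas class B factors lack such a domain and several act as repressors. HSP70 and HSP90 hold HSFA1 proteins inactive in unstressed cells and fold client proteins, small heat shock proteins bind unfolded proteins, and HSP101 takes aggregates apart. BIP is the HSP70 of the ER and is induced by the unfolded protein response.

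DXO1 mRNA differed strongly between the mutant lines. It had a mean of 10.93 ± 0.974 FPKM (fragments scaled by transcript length and depth; SD, n = 3) in Col-0, 212.2 ± 31.5 in the dxo1-1 libraries and 6.73 ± 0.882 in dxo1-2. The labels do not describe the alleles, so they predict no DXO1 level. The dxo1-1 libraries are called the libraries labelled dxo1-1 throughout. Depth estimated from the steps of low values was 17.2 to 20.6 M fragments per mRNA library. The estimated mean fragment length was 325 bases in Col-0 replicates 1 and 3 and 375 bases in the other 7 libraries. All 5 leaf markers were detected and summed to 52743 to 54836 FPKM in Col-0, 29157 to 32552 across the libraries labelled dxo1-1 and 34104 to 34625 in dxo1-2. Root markers summed to 22.86 to 25.95, 35.25 to 37.22 and 26.05 to 28.96 FPKM in the same order. Of the 4 tested root markers, the libraries labelled dxo1-1 had 3 higher and 1 lower, and dxo1-2 had 2 of each. By the same test, 49.6% and 51.8% of all tested genes were higher, and 26.0% and 21.2% lower. The root marker changes ranged from log2 -0.87 to 0.94 and from -2.06 to 0.75 in the 2 lines. The seed and flower or pollen markers were each under 1 FPKM everywhere. The part of these marker differences in the results below was not tested, and in bulk tissue fewer cells of a type and less RNA per cell cannot be told apart.

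Most heat shock protein genes, and fewer of the HSF genes, were higher in both mutant lines than in Col-0. Of the 45 genes, 37 averaged 1 FPKM or more across the 9 libraries and were tested with limma on log2(FPKM + 1), a scale that understates the change of low genes. Genes with an adjusted p under 0.05 (Benjamini-Hochberg, over all 18378 genes tested) are said to have passed. In the libraries labelled dxo1-1, 31 passed, 29 as higher and 2 as lower, and 6 did not, against a background of 75.6% of all tested genes in either direction, 49.6% higher and 26.0% lower. In dxo1-2, 28 passed, 27 as higher and 1 as lower, and 9 did not, against 73.0%, 51.8% and 21.2%. With at least a 2-fold change, 20 were higher in the libraries labelled dxo1-1 (background 17.1%) and 18 in dxo1-2 (background 15.5%), and 1 and 0 were lower (backgrounds 5.2% and 3.24%). The median change of the 37 was log2 1.23 and 0.83, beside 0.21 and 0.25 for all tested genes. Since the median of all tested genes lay above 0, libraries were also centred on their median. This moved the median of all genes to -0.10 in both comparisons. After centring, the libraries labelled dxo1-1 had 24 members higher and 4 lower, and dxo1-2 had 22 and 8. The centred counts over all 18378 genes were 6325 and 8002 for the former, with 5932 and 7807 for the latter. Both comparisons use the same 3 Col-0 libraries.

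The groups did not move alike. Of the 22 tested HSP and BIP genes, the libraries labelled dxo1-1 had 21 higher and dxo1-2 had 20, with none lower and medians of log2 1.90 and 1.51. Of the 15 tested HSF genes, 8 were higher and 2 lower in the former and 7 higher and 1 lower in the latter, with medians of log2 0.26 and 0.17, beside 0.21 and 0.25 for all tested genes. The HSF shares of higher genes were near the backgrounds of 49.6% and 51.8%. After centring, the HSP and BIP genes still counted 17 and 16 higher, with 0 and 2 lower. The HSF genes then split into 7 higher and 4 lower, and 6 higher and 6 lower.

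The HSFA1 genes, which act at the start of the heat response, changed by less than 2-fold on the fitted scale or did not pass. HSFA1D (AT1G32330) rose from 3.69, 4.1 and 3.14 FPKM in Col-0 to 7.93, 6.78 and 7.85 across the libraries labelled dxo1-1 and to 7.36, 7.28 and 7.01 in dxo1-2, with no overlap. HSFA1B (AT5G16820) rose from 12.82 ± 1.31 FPKM to 18.73 ± 0.924 and 20.49 ± 0.741 (log2 0.52 and 0.64). HSFA1E (AT3G02990) passed in the libraries labelled dxo1-1 by a small margin (log2 0.26, limma adjusted p = 0.0304), turned to log2 -0.05 when libraries were centred, and lost the call without Col-0 replicate 3 (log2 0.21), without dxo1-1 replicate 1 (0.21) or without dxo1-1 replicate 3 (0.26); in dxo1-2 it stood at log2 0.16 without passing. HSFA1A (AT4G17750) stood at 4.117 ± 0.231, 4.143 ± 0.673 and 4.103 ± 0.365 FPKM, with overlapping groups, and did not pass in either line, although after centring it passed as lower in both (log2 -0.31 and -0.36), and after quantile normalization in dxo1-2 (log2 -0.27).

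Among the heat-induced class A genes no common direction was seen. HSFA2 (AT2G26150), which prolongs the heat response, stood at 2.53, 2.21 and 2.59 FPKM in Col-0, while the libraries labelled dxo1-1 gave 5.25, 3.99 and 4.39 and dxo1-2 gave 1.98, 1.96 and 2.06. It was higher in the former (log2 0.68, SE 0.11, limma adjusted p = 0.000129). In dxo1-2 all 3 libraries lay below Col-0, without passing (log2 -0.20, limma adjusted p = 0.118), though it passed as lower when libraries were centred (log2 -0.55) or quantile normalized (log2 -0.41). HSFA7A (AT3G51910) measured 3.82, 4.33 and 3.84 FPKM in Col-0, while the libraries labelled dxo1-1 gave 1.33, 2.1 and 1.42 and dxo1-2 gave 3.02, 3.92 and 2.54. It fell in the former (log2 -0.94, limma adjusted p = 0.00012). In dxo1-2 its groups overlapped and it did not pass (log2 -0.28), although it passed as lower after centring (log2 -0.63), after quantile normalization (log2 -0.52) and without dxo1-2 replicate 2 (-0.40). HSFA3 (AT5G03720), which is activated downstream of DREB2A, stood at log2 -0.04 and -0.01 and passed in neither line, though it passed as lower in both after centring (log2 -0.35 and -0.36) and in neither after quantile normalization. HSFA7B (AT3G63350) was listed at 0 in 8 of the 9 libraries, and HSFA6A (AT5G43840) and HSFA6B (AT3G22830) stayed below 1.3 FPKM in each library and were not tested.

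HSFA4A (AT4G18880) and HSFA8 (AT1G67970), which act in oxidative stress signalling, rose most among class A. HSFA4A stood at 15.01, 19.46 and 16.35 FPKM in Col-0, while the libraries labelled dxo1-1 gave 61.28, 63.01 and 55.21 and dxo1-2 gave 69.5, 69.73 and 63.01. The means were 3.53 and 3.98 times that of Col-0 (log2 1.77 and 1.94, SE 0.09, limma adjusted p = 7.97e-09 and 4.69e-09). HSFA8 stood at 12.05, 12.62 and 11.74 FPKM in Col-0, while the libraries labelled dxo1-1 gave 53.4, 52.19 and 51.66 and dxo1-2 gave 63.25, 59.64 and 60.19. No library of either line overlapped with Col-0, and the log2 changes were 2.02 and 2.24 (SE 0.05). Together these genes made up 9.64% (HSFA8) and 13.4% (HSFA4A) of the summed HSF FPKM in Col-0. The libraries labelled dxo1-1 had 19.5% and 22.3%, and dxo1-2 had 22.5% and 24.9%. HSFA4C (AT5G45710), their close relative, and HSFA5 (AT4G13980), a partner of HSFA4 proteins, stood between log2 0.13 and 0.19 in both lines and did not pass; without Col-0 replicate 2 HSFA5 passed in both (log2 0.27 and 0.21). Both rescalings turned these values negative, and HSFA5 then passed as lower in dxo1-2 (log2 -0.22 and -0.19).

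Class B and C genes went in different directions. HSFB1 (AT4G36990), a repressor of heat-inducible genes, stood at 6.98, 8.46 and 7.99 FPKM in Col-0, while the libraries labelled dxo1-1 gave 48.58, 47.09 and 49.6 and dxo1-2 gave 26.28, 27.64 and 27.45. All mutant libraries lay above Col-0 and the lines did not overlap with each other (6.2-fold and 3.47-fold; log2 2.49 and 1.68, SE 0.07, limma adjusted p = 5.66e-11 and 1.64e-09). HSFB2A (AT5G62020) stood at 8.06, 11.29 and 9.09 FPKM in Col-0, while the libraries labelled dxo1-1 gave 23.82, 25.95 and 25.08 and dxo1-2 gave 24.13, 23.34 and 23.39, higher in both (log2 1.32 and 1.24). HSFB2B (AT4G11660), a repressor like HSFB1, was higher in dxo1-2 (log2 0.52, limma adjusted p = 9.39e-05), a call lost when libraries were centred (log2 0.17), and did not pass in the libraries labelled dxo1-1 (log2 0.16) unless Col-0 replicate 2 (log2 0.20) or dxo1-1 replicate 2 (0.21) was left out. HSFC1 (AT3G24520), the only class C member, was lower in both lines. Col-0 had 17.55, 18.55 and 18.9 FPKM, while the libraries labelled dxo1-1 gave 7.1, 7.78 and 6.72 and dxo1-2 gave 13.09, 14.12 and 13.94. The 3 groups were fully separate, and the log2 changes were -1.24 and -0.39 (SE 0.07, limma adjusted p = 1.90e-08 and 0.000311). HSFC1 was the HSF gene with the highest mean level in Col-0, with 14.6% of the summed HSF FPKM, and it had 2.68% and 5.06% in the mutant lines.

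**Figure D1:**
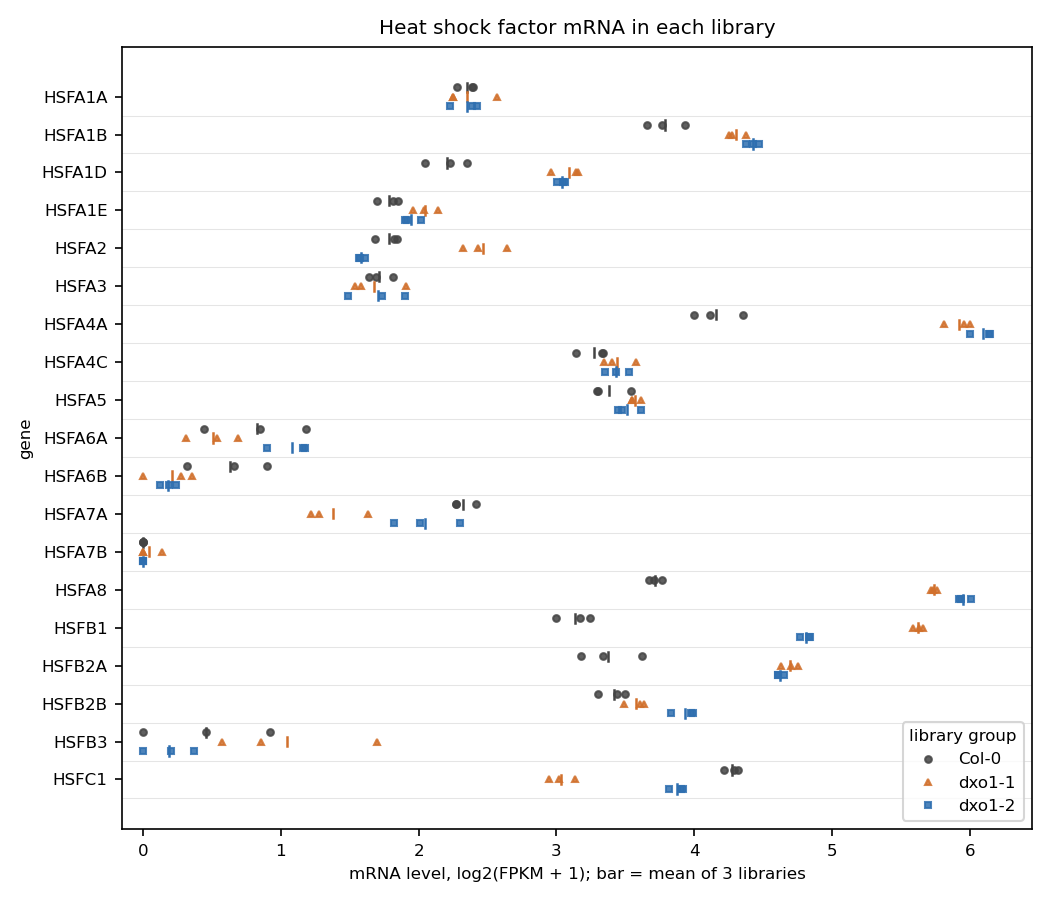
Level of each of the 19 HSF mRNAs in each of the 9 libraries as log2(FPKM + 1); points are libraries of Col-0, of those labelled dxo1-1 and of dxo1-2, and bars are means of 3. HSFA4A, HSFA8, HSFB1 and HSFB2A lie to the right of Col-0 in all 6 mutant libraries and HSFC1 to the left. Genes with smaller changes, such as HSFA1D, HSFA1B and HSFA4C, also lie to the right in all 6, and HSFA4C did not pass. The share of all genes without overlap was not counted.

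The HSP90 genes of the cytosol rose in both lines (backgrounds 49.6% and 51.8% higher). All 4 also passed as higher after centring, beside 6325 and 5932 of all 18378 genes. HSP90.1 (AT5G52640), the heat-inducible copy, stood at 3.23, 3.47 and 3.16 FPKM in Col-0, while the libraries labelled dxo1-1 gave 17.85, 16.82 and 15.55 and dxo1-2 gave 10.87, 10.17 and 10.58. This was 5.09-fold and 3.21-fold (log2 2.05 and 1.43, SE 0.07). HSP90.2 (AT5G56030) stood at 78.03, 79.3 and 73.7 FPKM in Col-0, while the libraries labelled dxo1-1 gave 179.92, 178.48 and 178.24 and dxo1-2 gave 162.58, 157.79 and 161.13. HSP90.3 (AT5G56010) stood at 61.53, 67.83 and 61.07, at 149.94, 148.99 and 151.42, and at 141.56, 131.08 and 135.47 FPKM in the same order. Neither gene had a mutant library within the range of Col-0, and their log2 changes were 1.21 and 1.23 for the libraries labelled dxo1-1, with 1.05 and 1.09 for dxo1-2. HSP90.4 (AT5G56000) rose from 7.877 ± 0.473 to 12.70 ± 0.184 and 12.03 ± 1.11 FPKM (log2 0.63 and 0.55). HSP90.2, HSP90.3 and HSP90.4 are near-identical, HSP90.4 lies next to HSP90.3 on the chromosome, and 1 gene lies between HSP90.3 and HSP90.2, so reads may have been split among them and the value of each is uncertain. Their shares of the summed HSP90 FPKM were close in all groups for HSP90.2 (50.8%, 49.9% and 50.3%) and HSP90.3 (41.8%, 41.9% and 42.6%), while HSP90.1 had 2.17%, 4.67% and 3.30%.

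HSP101 (AT1G74310), which works with small heat shock proteins in heat tolerance, stood at 2.410 ± 0.182, 3.790 ± 0.261 and 3.640 ± 0.0656 FPKM. It passed as higher in both lines (log2 0.49 and 0.45, limma adjusted p = 0.000419 and 0.000892), and in neither once libraries were centred (log2 0.18 and 0.09).

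Cytosolic HSP70 mRNA was dominated by HSC70-1 (AT5G02500), the main constitutive HSP70 gene, whose rise was large in one line and small in the other. HSC70-1 stood at 885.29, 929.9 and 834.2 FPKM in Col-0, while the libraries labelled dxo1-1 gave 2394.29, 2392.66 and 2297.44 and dxo1-2 gave 1151.9, 1057.43 and 1121.82. All 3 groups were separate (2.67-fold, log2 1.42, limma adjusted p = 2.40e-10; 1.26-fold, log2 0.33, limma adjusted p = 5.55e-05; SE 0.05 for both). The rise in dxo1-2 was close to the median change of all tested genes (log2 0.25). It was log2 -0.02 after centring and 0.09 after quantile normalization, and passed as higher in neither.

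HSC70-2 (AT5G02490) and HSC70-3 (AT3G09440), close copies of HSC70-1, rose more. HSC70-2 stood at 8.13, 7.36 and 7.22 FPKM in Col-0, while the libraries labelled dxo1-1 gave 131.39, 129.51 and 126.25 and dxo1-2 gave 90.21, 84.06 and 88.34. With 17-fold and 11.6-fold changes (log2 3.92 and 3.37, SE 0.05, limma adjusted p = 3.49e-13 and 1.59e-12), it ranked 119th and 131st from the top of all tested genes. HSC70-3 stood at 54.19, 56.08 and 54.91 FPKM in Col-0, while the libraries labelled dxo1-1 gave 328.1, 322.01 and 332.16 and dxo1-2 gave 219.83, 207.58 and 219.88 (log2 2.55 and 1.95). HSC70-2 lies next to HSC70-1 on the chromosome, and reads of the 3 copies may have been assigned between them, so their separate levels are uncertain. As a share of cytosolic HSP70 FPKM, HSC70-1 had 92.6% (Col-0), 82.9% (libraries labelled dxo1-1) and 77.3% (dxo1-2). HSC70-2 had 0.795%, 4.53% and 6.10%, and HSC70-3 had 5.78%, 11.5% and 15.0%, in the same order.

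The heat-inducible HSP70 genes differed from each other. HSP70-4 (AT3G12580) stood at 4.94, 4.57 and 4.39 FPKM in Col-0, while the libraries labelled dxo1-1 gave 24.07, 26.35 and 24.06 and dxo1-2 gave 19.11, 17.08 and 18.28, higher in every mutant library (log2 2.20 and 1.77, SE 0.07). HSP70B (AT1G16030), in contrast, stood at 3.283 ± 0.361, 3.973 ± 0.316 and 3.623 ± 0.00577 FPKM and did not pass (log2 0.22, limma adjusted p = 0.0553, and log2 0.11, limma adjusted p = 0.295). Its 95% intervals reached from 0.01 to 0.42 and from -0.09 to 0.32, and centring turned it to log2 -0.10 and -0.24, of which the second passed as lower. Without Col-0 replicate 2 (log2 0.29), or without dxo1-1 replicate 3 (0.26), it passed in the libraries labelled dxo1-1.

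The BIP genes rose strongly in both lines, under each scaling tried. BIP1 (AT5G28540) stood at 73.23, 80.34 and 68.95 FPKM in Col-0, while the libraries labelled dxo1-1 gave 279.62, 268.6 and 285.62 and dxo1-2 gave 251.23, 235.53 and 248.93. BIP2 (AT5G42020) stood at 62.22, 65.24 and 63.97, at 346.94, 332.33 and 356.31, and at 298.53, 283.62 and 294.57 FPKM. These near-identical genes, of uncertain separate level, changed by log2 1.89 and 1.71 (BIP1) and by 2.42 and 2.18 (BIP2). BIP3 (AT1G09080), which in unstressed plants is nearly silent and is induced by ER stress, stood at 1.04, 1.42 and 0.82 FPKM in Col-0, while the libraries labelled dxo1-1 gave 21.74, 20.13 and 21.66 and dxo1-2 gave 33.38, 31.8 and 32.17. That was 19.4-fold and 29.7-fold (log2 3.41 and 4.01, SE 0.10, limma adjusted p = 7.68e-11 and 3.32e-11), and BIP3 was the member with the highest change in dxo1-2. Its share of BIP FPKM went from 0.780% to 3.29% and 5.69%.

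Genes of the ER stress response rose with BIP. Of 17 such genes, 16 passed as higher in each line (backgrounds 49.6% and 51.8%) and 1, IRE1B, named here because it was the single exception, did not (log2 0.07 and -0.04). The median change was log2 1.70 and 1.49, and after centring 16 were higher and 1 lower in each line. The centred counts over all 18378 genes were 6325 and 5932 higher, with 8002 and 7807 lower. Among the sensors and regulators, BZIP28, a membrane-bound transcription factor, rose from 14.04 ± 1.38 to 32.14 ± 0.588 and 26.15 ± 1.64 FPKM. IRE1A, the kinase and nuclease that splices BZIP60 mRNA, rose from 13.05 ± 0.965 to 28.04 ± 1.33 and 26.99 ± 0.686 FPKM. BZIP60 itself rose from 56.58 ± 3.29 to 97.42 ± 2.65 and 80.65 ± 0.416 FPKM (log2 0.77 and 0.51). After quantile normalization the change of BZIP60 in dxo1-2 no longer passed (log2 0.11). The folding genes moved further. PDIL1-2, a protein disulfide isomerase gene, rose from 21.83 ± 0.50 to 203.1 ± 6.75 and 189.2 ± 2.02 FPKM, and CRT3, a calreticulin gene, from 69.98 ± 5.30 to 579.9 ± 25.7 and 419.8 ± 3.49. ERDJ3A, a BIP co-chaperone of the ER, rose from 1.427 ± 0.0289 to 19.27 ± 0.422 and 19.49 ± 0.217 FPKM (log2 3.06 and 3.08).

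The 13 small heat shock protein members were low in Col-0, where none had a mean above 5 FPKM, and 9 of the 13 were tested. All 9 passed as higher for the libraries labelled dxo1-1 and 8 for dxo1-2 (backgrounds 49.6% and 51.8%), with medians of log2 1.90 and 1.60. After centring 6 were higher in each line, with 0 and 1 lower. Over all 18378 genes the centred counts were 6325 and 5932 higher, with 8002 and 7807 lower. Each estimated HSP15.7 fragment stood for 0.27 and 0.26 FPKM in Col-0 replicates 1 and 3, whose fragments were shorter. In Col-0 replicate 2 it stood for 0.39. With that library as the only control, 10 members were tested, and the median change was lower in both lines than with all Col-0 libraries. HSP17.6B-CI and HSP15.7 then had lower changes, as given below. The part of fragment length in these calls was not tested separately. The summed level of the 13 members rose from 17.14 ± 2.39 FPKM to 85.69 ± 2.47 and 53.28 ± 2.42. HSP15.4 and HSP17.4-CIII, small heat shock protein genes outside the members, went the other way. They had higher levels in Col-0 than any of the 13 and were lower in both lines, as given below.

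Both class II genes of the cytosol rose in each line. HSP17.6A-CII (AT5G12030) stood at 0.68, 1.32 and 0.5 FPKM in Col-0, while the libraries labelled dxo1-1 gave 6.36, 7.82 and 7.24 and dxo1-2 gave 5.68, 7.02 and 6.07 (log2 2.17 and 2.01, SE 0.15). HSP17.6-CII (AT5G12020), its neighbour on the chromosome, stood at 0.56, 0.35 and 0.14, at 3.31, 5.73 and 3.28, and at 4.43, 7.16 and 5.74 FPKM (log2 1.90 and 2.32, SE 0.21). The groups were separate from Col-0 for both genes, but the Col-0 values rest on an estimated 1 to 6 fragments per library.

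Class I genes fell into a strongly and a weakly changed part. HSP17.4-CI (AT3G46230) stood at 0.66, 0.65 and 0.9 FPKM in Col-0, while the libraries labelled dxo1-1 gave 6.81, 5.86 and 7.53 and dxo1-2 gave 6.07, 7.18 and 5.84 (log2 2.15 and 2.08). HSP17.6A-CI (AT1G59860) stood at 1.06, 2.13 and 1.68, at 11.44, 9.83 and 10.86, and at 6.9, 5.68 and 8.09 FPKM (log2 2.18 and 1.60). HSP17.8-CI (AT1G07400) stood at 1.49, 2.18 and 1.98, at 10.25, 9.23 and 9.69, and at 2.92, 4.32 and 4.14 FPKM (log2 1.90 and 0.73, SE 0.13). Every mutant library of these 3 genes lay above Col-0. The Col-0 values of HSP17.4-CI rest on an estimated 4 to 7 fragments per library, and those of HSP17.6A-CI on 8 to 13. HSP17.6B-CI (AT2G29500) was higher in the libraries labelled dxo1-1 (log2 0.61, limma adjusted p = 0.0013) and not shown to differ in dxo1-2 (log2 0.04, interval -0.24 to 0.33), where centring turned it to a lower call (log2 -0.31); with Col-0 replicate 2 as the only control, or after centring, the first call was lost (log2 0.39 and 0.30). HSP18.2-CI (AT5G59720), at 4.907 ± 0.727, 7.470 ± 2.65 and 7.763 ± 1.62 FPKM, passed narrowly (limma adjusted p = 0.047 and 0.0259). It lost the call in both lines after centring (log2 0.17 and 0.21), after quantile normalization (0.23 and 0.27), and when Col-0 replicate 1 (log2 0.41 and 0.49) or Col-0 replicate 2 (0.46 and 0.54) was left out. In the libraries labelled dxo1-1 it also lost it without dxo1-1 replicate 1 (log2 0.24), dxo1-1 replicate 3 (0.54) or dxo1-2 replicate 3 (0.48), and in dxo1-2 without dxo1-2 replicate 1 (0.42). Reads of class I genes can be shared between copies, which leaves their separate levels uncertain.

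HSP23.5 (AT5G51440), a small heat shock protein gene of the mitochondrion, had the highest ratio of means to Col-0 of the tested members in the libraries labelled dxo1-1. It stood at 0.72, 1.37 and 1.32 FPKM in Col-0, while the libraries labelled dxo1-1 gave 28.2, 30.32 and 27.73 and dxo1-2 gave 6.25, 5.79 and 8.92. The 3 groups were fully separate, at 25.3-fold and 6.15-fold (log2 3.81 and 1.90, SE 0.15, limma adjusted p = 1.37e-09 and 6.05e-07). The Col-0 values of HSP23.5 rest on an estimated 8 to 15 fragments per library, so these folds are uncertain. Its share of small heat shock protein FPKM was 6.53% (Col-0), 33.6% (libraries labelled dxo1-1) and 13% (dxo1-2). HSP15.7 (AT5G37670), of the peroxisome, passed in both lines (log2 0.45 and 0.44) and in neither after centring (log2 0.13 and 0.08), after quantile normalization (log2 0.25 and 0.20) or with Col-0 replicate 2 as the only control (log2 0.25 and 0.24). Its call in dxo1-2 was also lost without dxo1-2 replicate 3 (log2 0.35).

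Of the small heat shock protein genes under the filter, HSP21 (AT4G27670), of the chloroplast, was listed at 0 in all 3 Col-0 libraries and reached 1.52, 1.34 and 0.86 FPKM in those labelled dxo1-1, with 1.46, 1.83 and 1.05 in dxo1-2. HSP23.6 (AT4G25200), of the mitochondrion, was likewise listed at 0 in Col-0 and stood at 0.31 to 0.65 and at 0.1 to 0.31 FPKM. HSP22 (AT4G10250), of the ER, did not exceed 0.36 FPKM and HSP17.6C-CI (AT1G53540) did not exceed 0.99 FPKM in any library. HSFB3 (AT2G41690), the remaining member under the filter, ranged from 0 to 2.25 FPKM.

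**Figure D2:**
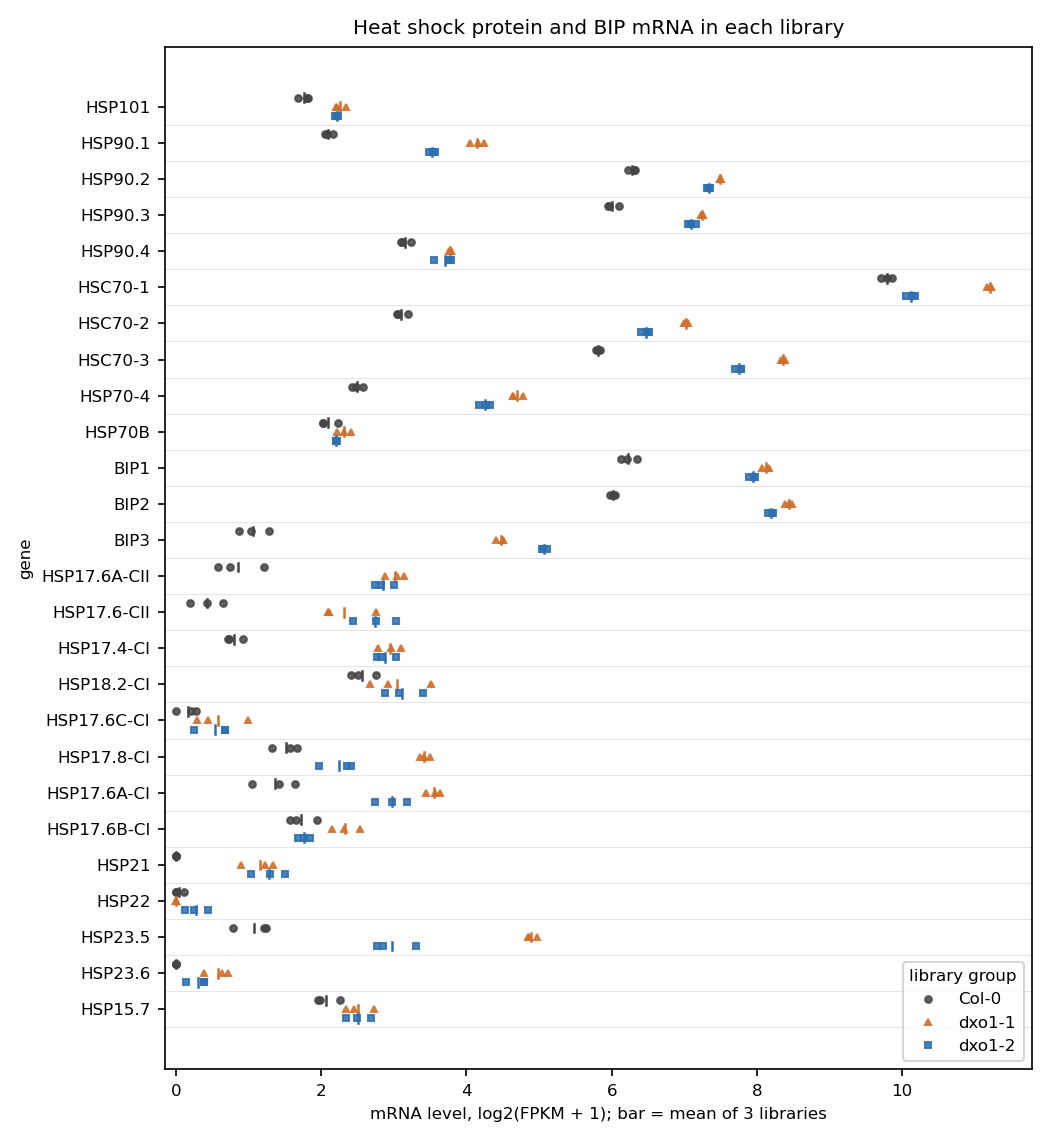
Level of each of the 26 HSP and BIP mRNAs in each of the 9 libraries as log2(FPKM + 1), with bars at the mean of 3. HSC70-1 has the highest level in every library, and HSC70-2, BIP3 and HSP23.5 show the widest gaps between Col-0 and the libraries labelled dxo1-1.

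The partners of HSP90 and HSP70 rose as well. All 15 co-chaperone genes passed as higher in each line (backgrounds 49.6% and 51.8%), with median log2 0.71 and 0.80. After centring 13 and 14 did, with none lower, beside 6325 and 5932 of all 18378 genes higher. The highest mean changes were at HOP2, which bridges HSP70 and HSP90 (18.76 ± 0.523 to 42.97 ± 2.02 and 48.01 ± 0.786 FPKM), FES1A, an HSP70-binding protein gene (8.587 ± 0.568 to 25.60 ± 1.25 and 17.16 ± 0.316), and SGT1B, an HSP90 co-chaperone of immune receptors (77.06 ± 1.94 to 178.2 ± 1.68 and 162.1 ± 1.41). The lowest were at BAG6 (log2 0.26 and 0.43), P23-1 (0.36 and 0.57) and HSP70-14 (0.60 and 0.56). BAG6 was lost as a call after either rescaling and, in the libraries labelled dxo1-1, without Col-0 replicate 1 (log2 0.22) or dxo1-1 replicate 3 (0.23); P23-1 was lost in the libraries labelled dxo1-1 after either rescaling and with Col-0 replicate 2 as the only control.

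Organelle chaperones, the relatives of these proteins in mitochondria and chloroplasts, split by compartment. All 5 mitochondrial genes were higher in both lines (backgrounds 49.6% and 51.8%; median log2 0.72 and 0.81; after centring 4 and 5). The mitochondrial HSP70 genes led them: mtHSC70-1 rose from 42.43 ± 0.979 to 117.1 ± 2.08 and 111.2 ± 1.45 FPKM and mtHSC70-2 from 16.04 ± 0.878 to 52.49 ± 2.67 and 51.08 ± 0.950. HSP60, a mitochondrial chaperonin gene, rose from 34.35 ± 1.75 to 57.42 ± 3.55 and 60.75 ± 1.53 FPKM. Of the 7 chloroplast genes, 6 were lower (background 26.0%) and 1 higher in the libraries labelled dxo1-1. In dxo1-2, 4 were lower (background 21.2%), 1 was higher and 2 did not pass, and after centring 6 were lower and 1 higher in each line. Of all 18378 genes, 8002 and 7807 were lower after centring in the 2 lines, and 6325 and 5932 higher. CPN60B1, of the chloroplast chaperonin, fell from 409.1 ± 25.3 to 171.4 ± 7.01 and 258.4 ± 5.54 FPKM. Its partner CPN60A1 fell from 331.5 ± 10.8 to 189.7 ± 0.578 and 245.0 ± 6.84 FPKM, and the chloroplast HSP70 gene cpHSC70-1 from 198.9 ± 8.36 to 131.7 ± 5.03 and 160.2 ± 6.60. The single higher gene, CLPB3, the chloroplast relative of HSP101, is named for that reason (log2 0.49 and 0.62). All 5 leaf marker genes, which encode chloroplast proteins, were also lower in both lines as measured and after centring. After quantile normalization, 4 were lower and 1 did not pass in the libraries labelled dxo1-1, while in dxo1-2 there were 3 lower, 1 higher (LHCB1.1, log2 0.17) and 1 not passing. LHCB1.1 is named because it turned. Quantile normalization gave 7831 and 7464 of all 18378 genes as lower in the 2 lines, with 6359 and 6131 higher. The markers' part in the chloroplast values was not tested.

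**Figure D3:**
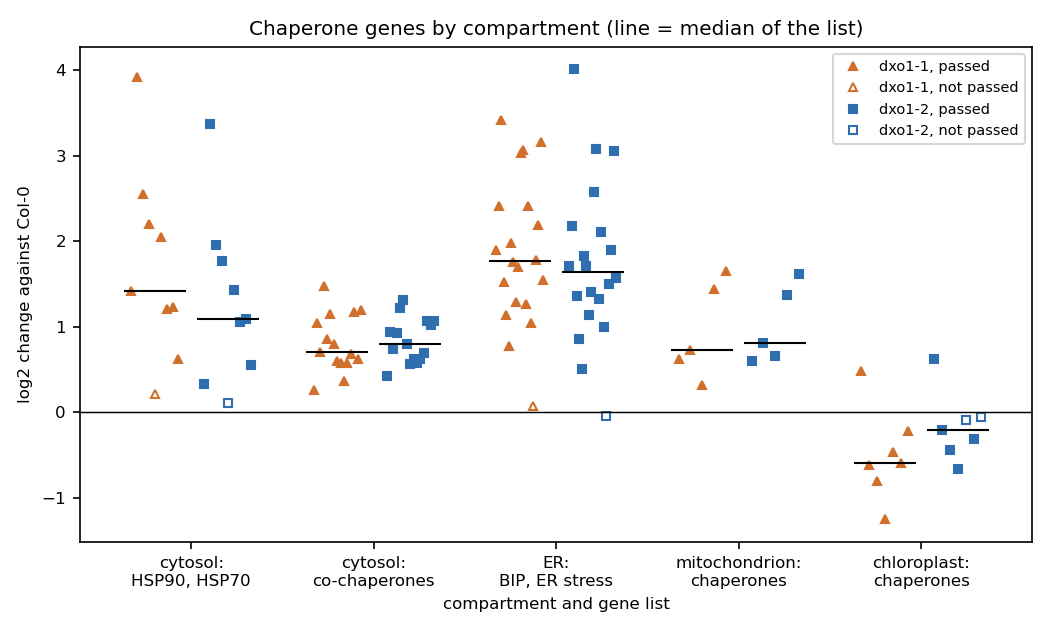
Log2 change against Col-0 of each tested gene, by compartment and list, for the libraries labelled dxo1-1 (triangles) and dxo1-2 (squares); open symbols did not pass and black lines are medians. Cytosolic, ER and mitochondrial genes lie above 0 except IRE1B in dxo1-2, and 6 of the 7 chloroplast genes lie below 0 in each line (medians -0.59 and -0.21).

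Among partners and targets of the HSFs, 10 of 13 genes were tested, and 5 were higher, 3 lower and 2 did not pass in each line, shares near the backgrounds of 49.6% and 51.8% higher and 26.0% and 21.2% lower. After centring 4 were higher and 5 lower in each line. Of all 18378 genes, 6325 and 5932 were then higher and 8002 and 7807 lower. MBF1C, a coactivator in heat tolerance, rose from 26.52 ± 3.73 to 136.4 ± 7.12 and 107.8 ± 3.48 FPKM. DREB2A, which activates HSFA3, rose from 7.033 ± 0.396 to 21.62 ± 0.480 and 12.45 ± 0.762 FPKM, and its relative DREB2C from 0.7733 ± 0.163 to 4.077 ± 0.548 and 2.680 ± 0.0173. DREB2B passed narrowly (log2 0.35 and 0.44) and lost both calls after centring. Its first call was also lost without Col-0 replicate 2 (log2 0.28) or dxo1-1 replicate 3 (0.25), and its second without dxo1-2 replicate 2 (0.32). The lowest were 2 further small heat shock protein genes, HSP15.4 (15.10 ± 1.99 to 8.997 ± 0.917 and 8.467 ± 0.933 FPKM) and HSP17.4-CIII (33.18 ± 1.44 to 22.65 ± 1.21 and 26.81 ± 2.97). The genes for HSFA9, a seed factor, and APX2, a target of HSFA2, were listed at 0 or stayed below 0.3 FPKM in every library.

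**Figure D4:**
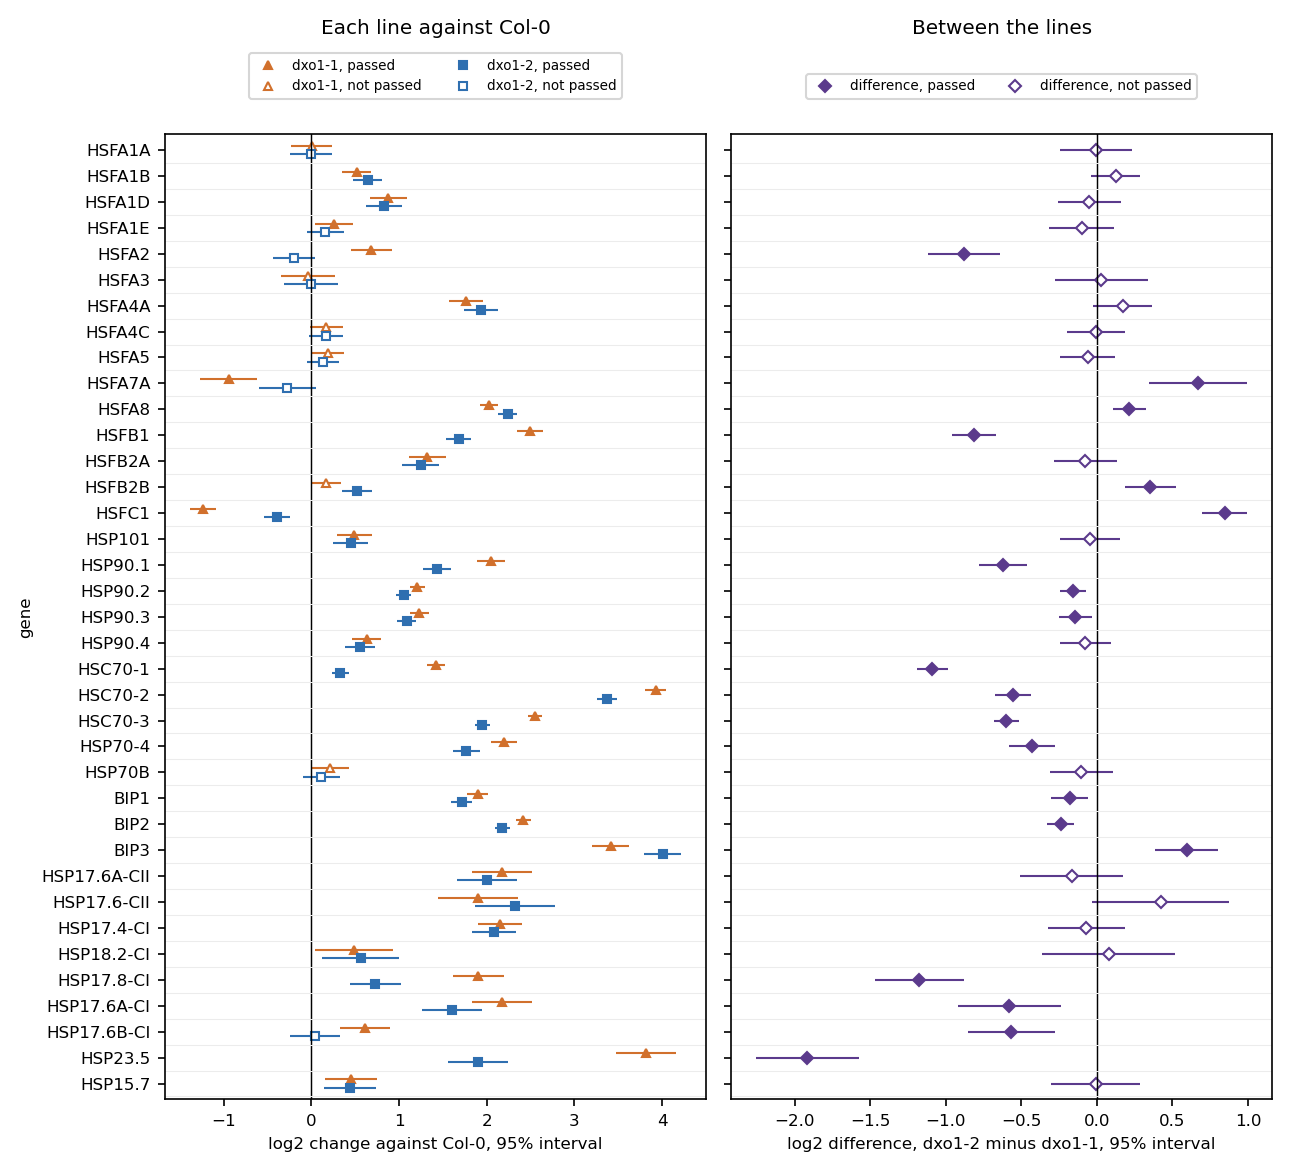
Left, log2 change of each of the 37 tested members against Col-0 with its 95% interval, for the libraries labelled dxo1-1 (triangles) and dxo1-2 (squares); right, the difference of dxo1-2 minus the libraries labelled dxo1-1. Open symbols did not pass. HSC70-2, HSP23.5 and BIP3 lie farthest right, HSFC1 and HSFA7A lie left of 0, and 15 of the 20 differences that passed lie left of 0.

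The lines differed from each other in 20 of the 37 tested members, against 38.1% of all tested genes. Set against the libraries labelled dxo1-1, 15 were lower in dxo1-2, 5 were higher and 17 did not pass, on a background of 15.7% of all tested genes lower and 22.3% higher. With at least a 2-fold difference, 3 were lower (background 1.62%) and 0 higher. Centred libraries also gave 15 lower and 5 higher, beside 3566 lower and 3523 higher of all 18378 genes. HSP23.5 (log2 -1.92, SE 0.15, limma adjusted p = 6.05e-06), HSP17.8-CI (log2 -1.17, SE 0.13, limma adjusted p = 6.36e-05) and HSC70-1 (log2 -1.09, SE 0.05, limma adjusted p = 7.72e-08) were the 3 with at least 2-fold. HSFA2 (log2 -0.88) and HSFB1 (-0.81) came next among the lower ones.

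All 4 passing cytosolic HSP70 genes were lower in dxo1-2 than in the other line, with log2 differences from -1.09 to -0.43. HSP90.2, HSP90.3, BIP1 and BIP2 differed by log2 -0.16, -0.14, -0.18 and -0.24. HSP90.3 (limma adjusted p = 0.041) lost this call after quantile normalization (log2 -0.09), without any one of the 3 dxo1-1 libraries (log2 -0.14 to -0.15) or without dxo1-2 replicate 2 (-0.12) or 3 (-0.14). BIP1 (limma adjusted p = 0.0253) lost it without dxo1-1 replicate 1 (-0.18) or 3 (-0.16) or dxo1-2 replicate 2 (-0.15), and HSP17.6A-CI (log2 -0.58) without dxo1-2 replicate 2 (-0.46). The 5 members higher in dxo1-2 were HSFC1 (log2 0.85, limma adjusted p = 6.33e-06), HSFA7A (0.67), BIP3 (0.59), HSFB2B (0.35) and HSFA8 (0.22). The genes that fell in the libraries labelled dxo1-1, HSFC1 and HSFA7A, were among those higher in dxo1-2 in this comparison. All 7 chloroplast chaperone genes were also higher in dxo1-2 (background 22.3%; median log2 0.37), with leaf markers summing to a higher level there as given above. After centring, 6 of the 7 were higher and 1 did not pass, beside 3523 of all 18378 genes higher. The class II small heat shock protein genes, HSP17.4-CI, HSFA4A and HSFB2A did not pass between the lines; their 95% intervals lay within -0.51 and 0.88, and HSP17.6-CII passed as higher without dxo1-1 replicate 2 (log2 0.64).

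Small RNA reads at these genes were few, and no member passed in any small RNA comparison. Over the 12 libraries, 23 of the 45 genes had no 21-nt read, 19 no 22-nt read and 26 no 24-nt read. The members had 1389, 1228 and 856 recovered reads in all in the 3 size classes, against 37059 to 795568 reads per library and class. Of these reads, 83.9%, 82.7% and 89.8% were at 7 genes (HSP90.2, HSP90.3, HSP90.4, HSC70-1, HSC70-3, BIP1 and BIP2). Several of these are near-identical copies, and the treatment of multiply mapping reads was not stated in the sources used. HSC70-1 had 20.5 ± 14.8 normalized 21-nt reads (SD, n = 3) in Col-0, 17 ± 1.71 in dxo1-2, 9.26 ± 5.47 in dcl4-2 and 32.3 ± 12.6 in dxo1-2dcl4-2.

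At a mean of at least 1 normalized read, 12, 12 and 8 members were tested in the 21-nt, 22-nt and 24-nt classes with limma. Against Col-0, 0 were called in dxo1-2 (backgrounds 0.938%, 0.282% and 0.13% of all features in the 3 classes), 0 in dcl4-2 (0.862%, 1.14% and 0.366%) and 0 in dxo1-2dcl4-2 (3.41%, 4.72% and 5.71%). At an unadjusted limma p under 0.05 there were 1, 0 and 0 members in dxo1-2, 1, 0 and 1 in dcl4-2 and 3, 1 and 1 in dxo1-2dcl4-2. The share of all features at this unadjusted threshold was not counted, so these counts have no background beside them. On the recovered reads, edgeR also called 0 members at an adjusted p under 0.05. At 21 nt, 1 member, BIP1, passed in dcl4-2 without dcl4-2 replicate 2, and 1, HSFC1, in dxo1-2dcl4-2 without replicate 2 of that line. At 24 nt, HSC70-1 had 7.32 ± 2.71 normalized reads in Col-0 and 28.0 ± 5.14 in dxo1-2dcl4-2, with no overlap (log2 1.90, limma adjusted p = 0.0971). It is named after its values were seen, and passed only when the filter was raised to a mean of 5. In simulated 21-nt data of 7892 features for dxo1-2 against Col-0, the test found 45% of those changed by log2 4. The changed features were drawn only from those with a mean of at least 5 normalized reads. Of the 12 members tested at 21 nt, 7 reached that mean, so the share does not cover the lower ones. Other sizes, classes and comparisons were not simulated.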

How the data were processed

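The 45 members and the gene lists were chosen with earlier results of these data known. Groups and replicate numbers came from the sample titles. The mRNA values are FPKM, made by the authors before deposit; TopHat2 2.1.0 and RSEM with the build TAIR10 are named, in no order, per the submitters' processing notes. For small RNA the deposited tables hold a signal, reads per gene normalized by the authors, for 21-nt, 22-nt and 24-nt RNAs; Bowtie and TAIR10 are named, per the submitters' processing notes. Every value above 0 was a whole multiple of a step per library (100% within 0.001 reads), so reads were recovered. The sources used here state neither strand use nor the treatment of multiply mapping reads.

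limma 3.58.1 in R 4.3.3, with a mean-variance trend, was run on log2(FPKM + 1) for genes averaging 1 FPKM or more across the 9 libraries, with all 3 groups in the fit. Small RNA values were fitted on log2(normalized reads + 0.5) for features averaging 1 or more across the 12 libraries, with all 4 groups in the fit. Adjusted p-values are Benjamini-Hochberg values over all genes tested, and tests are two-sided. Chosen after seeing the data were edgeR 4.0.16 on recovered reads and a fit with Col-0 replicate 2 as the only control, since its fragment length was that of the mutant libraries. Alternatives were the pseudocount, the filter, centring, quantile normalization, no trend, 2-group fits, a replicate block and leaving out each library. Simulated mRNA data of 18378 genes, with normal noise, stood for the libraries labelled dxo1-1 against Col-0. In them 100 genes were changed by log2 0.5 and 100 by log2 1, of which the test found 69% and 98%. In the real comparison 75.6% of tested genes passed, which sets a different Benjamini-Hochberg cutoff. The simulated shares are therefore not the recovery in these data.

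Any member could be named. Values in every library are given for members past the test with at least a 2-fold change in a line or between the lines, and for members called in opposite directions in the lines. From each list the 3 highest and 3 lowest mean changes among genes called in both lines are named, besides genes called in opposite directions and those named for a stated reason. Library sizes come from steps of low FPKM values, of which 94.0 to 96.9% lay near whole fragments (tolerance 0.15), and served only to describe depth. Gene order was read from the RefSeq table of TAIR10.1, in which all 45 members were matched; no coordinates of it are printed.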

Additional observations from a re-analysis of the deposited data

Results flagged for a closer look

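In 4 members the change against Col-0 differed between the lines by the direct limma comparison, and either the difference was at least 2-fold or the changes had opposite signs. HSP23.5 differed by log2 -1.92, with means of 28.75 ± 1.38 FPKM (SD, n = 3) for the libraries labelled dxo1-1 and 6.987 ± 1.69 for dxo1-2, lower in 3 of 3 libraries. HSP17.8-CI differed by log2 -1.17 (9.723 ± 0.511 and 3.793 ± 0.762 FPKM) and HSC70-1 by log2 -1.09 (2361 ± 55.5 and 1110 ± 48.3 FPKM), again with 3 of 3 libraries lower in dxo1-2. HSFA2 differed by log2 -0.88 (4.543 ± 0.644 and 2.000 ± 0.0529 FPKM) and had changes of opposite sign against Col-0, log2 0.68 for the libraries labelled dxo1-1 and log2 -0.20 for dxo1-2, of which the second did not pass.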

How the results depend on the processing

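The main limits are 3 libraries a group, no counts for mRNA and few small RNA reads at members. Another is that the median change of all genes depends on scaling. After centring, the libraries labelled dxo1-1 had 6325 genes higher and 8002 lower, against 9116 and 4786 before. In dxo1-2 there were 5932 and 7807, against 9520 and 3890. HSP90.2, BIP1, HSC70-1 and their near-identical copies are of uncertain separate level.

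Members lower in the libraries labelled dxo1-1 were 1 at a filter of 5 FPKM and 4 when centred. Members lower in dxo1-2 were 2 with no filter, 8 when centred and 5 after quantile normalization. That last setting gave 7464 of all 18378 genes as lower in dxo1-2. ER stress genes lower were 1 in each line under both rescalings. Heat response partners and targets higher were 2 in each line at a filter of 5 FPKM, and lower were 5 in each line when centred and 5 in dxo1-2 after quantile normalization. Small RNA members called in dxo1-2dcl4-2 were 2 at 21 nt when centred (HSFC1 and HSC70-2) and 1 at 24 nt at a filter of 5. Leaf markers lower in dxo1-2 were 3 after quantile normalization, against 5. The remaining counts over all members, and over the whole lists of co-chaperones, ER stress genes, organelle chaperones, partners and targets, stayed within 1.5 times of their reported value, edgeR and the fit with Col-0 replicate 2 as the only control included.

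Libraries of the same replicate number showed little joint deviation over all tested genes. The correlations were -0.0337 to 0.0945 in mRNA and -0.0236 to 0.0234 in small RNA, none above 0.1. They cannot show whether such libraries were grown or prepared together. With a replicate block, members lower in dxo1-2 were 2 (HSFA7A passed), HSFA5 passed as higher in the libraries labelled dxo1-1, HSP90.3 no longer differed between the lines, and no other reported call changed.

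Some changes near 0 turned sign, and the cause was not tested beyond the shift of the median itself. In the libraries labelled dxo1-1, centring and quantile normalization gave -0.312 and -0.208 for HSFA1A (-0.000910 at a pseudocount of 0.1), -0.142 and -0.107 for HSFA4C, -0.121 and -0.0935 for HSFA5, and -0.149 and -0.123 for HSFB2B. Centring gave -0.0533 for HSFA1E, -0.0956 for HSP70B and -0.0568 for BAG6, and quantile normalization -0.0602 for P23-1. In dxo1-2 the same settings gave -0.194 and -0.0480 for HSFA1E, -0.187 and -0.146 for HSFA4C, -0.221 and -0.192 for HSFA5, -0.239 and -0.118 for HSP70B, and -0.310 and -0.169 for HSP17.6B-CI, while centring gave -0.0223 for HSC70-1. With Col-0 replicate 2 as the only control (its spread taken from the other groups), dxo1-2 values were 0.0709 for HSFA1A, 0.0167 for HSFA3, -0.0318 for HSFA5, -0.0237 for HSP70B and -0.173 for HSP17.6B-CI. Between the lines HSFA3 turned to -0.00979 when centred and -0.0108 after quantile normalization.

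Leaving out each library in turn gave 1 to 2 members lower in dxo1-2, and 0 to 1 small RNA members called at 21 nt in dcl4-2 and in dxo1-2dcl4-2. It also turned values near 0. HSFA1A ranged from -0.105 to 0.0541 in the libraries labelled dxo1-1, from -0.0446 to 0.0544 in dxo1-2 and from -0.0594 to 0.0995 between the lines. HSFA3 ranged from -0.153 to 0.0297, from -0.105 to 0.101 and from -0.0667 to 0.145 in that order. HSP17.6B-CI in dxo1-2 ranged from -0.0323 to 0.151. Between the lines the ranges were -0.0518 to 0.0627 for HSFA4C, -0.0980 to 0.103 for HSP15.7, -0.153 to 0.00417 for HSP17.4-CI and -0.103 to 0.317 for HSP18.2-CI. Promoter motifs, and the shorter promoter window planned as their alternative, were not run.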
